A study of Mus musculus with 12 samples.

Results

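DNA methylation was examined at 6 genes of the cell cycle, of cell death and of the DNA damage response in β cells of neonatal and adult mice. They were Anapc7, Nek4, Ccng1, Bax, Bcl2l1 and Trp53bp1, 6 of 21757 protein-coding genes, and were chosen because the study names them when it considers proliferation, survival and ageing of neonatal β cells. Each locus was the GENCODE gene on mm39 plus 20 kb on each side. Together the loci held 6151 of the 21571628 CpG dinucleotides listed for P2 on the main chromosomes and 36 of 87689 hypomethylated regions (HMRs). The set had been proposed as genes that differ between β-cell subtypes at P2. In the study's single-cell RNA data Anapc7, Nek4, Ccng1, Bax and Bcl2l1 differed in expression between the subtypes at P2. Its text places Trp53bp1 with ageing markers that did not. RNA was not analysed here, so the genes are called here by what they are. Methylation at P2 differed by test at 1 of the 36 HMRs, which is another measure and does not test the RNA differences.

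The 12 libraries came from mice with the alleles Myt1cCre, Ngn3nCre, Rosa26eYFP and InsApple (called MNYI), which all groups shared. The Myt1 and Neurog3 loci each drive a Cre fragment, so that eYFP marks descendants of progenitors that expressed both (M+N+) and is missing from descendants of M-N+ progenitors, while Apple under the insulin gene marks β cells. Sorted eYFP- and eYFP+ β cells were sequenced in 2 libraries each at postnatal day 2 (P2) and in 4 each at postnatal day 60 (P60). The libraries are labelled male or female, at P2 replicate 1 of each subtype as female and replicate 2 as male. Per the methods, at least 3 sorts of 4 to 7 mice were combined for each stage and sex. Whether libraries share mice is not stated. The labels write the reporter as eGFP and give all islet cells as the cell type, while titles and methods describe sorted β cells. Read counts were deposited for 1 pool per subtype and age, whereas for a single library only HMR positions are known.

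In mammals most CpGs carry a methyl group on the cytosine. Promoters rich in CpGs and active enhancers stand out as HMRs, and enhancers gain or lose methylation as a cell type matures. β cells divide in the first weeks after birth and rarely in the adult. Anapc7 is a subunit of the anaphase-promoting complex (APC/C), the ubiquitin ligase that drives cells out of mitosis. Nek4 is a kinase of the NIMA-related family, and Ccng1 (cyclin G1) is a p53 target. Bax permeabilises the outer mitochondrial membrane in apoptosis, and Bcl-xL, the long product of Bcl2l1, blocks it. Trp53bp1 (53BP1) binds chromatin at DNA double-strand breaks and steers their repair.

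The HMRs were numbered along the chromosome within each locus (Bax H4 is the fourth of the Bax locus, and H4 is not a histone here). 4 stretches that bear on the main results are shown 5′ to 3′ from mm39, with each CpG as CG in capitals. The first, in a coding exon of the neighbouring Atp2a2 gene, was the one HMR that differed between subtypes at P2. The next, 3′ of Bax and at the Map1a promoter beside Trp53bp1, had low levels at P2 and higher, partial methylation at P60. The last, just upstream of the Bax start, is shown as a promoter that stayed unmethylated. The first 3 are on the plus strand and the Bax promoter on the minus strand, the strand of Bax.
Anapc7 H3, chr5:122598783-122599022: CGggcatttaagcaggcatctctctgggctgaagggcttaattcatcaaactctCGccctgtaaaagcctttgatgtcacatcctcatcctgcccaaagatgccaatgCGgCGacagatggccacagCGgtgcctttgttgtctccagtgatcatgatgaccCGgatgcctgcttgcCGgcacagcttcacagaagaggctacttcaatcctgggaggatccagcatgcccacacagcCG
Bax H4, chr7:45110283-45110582: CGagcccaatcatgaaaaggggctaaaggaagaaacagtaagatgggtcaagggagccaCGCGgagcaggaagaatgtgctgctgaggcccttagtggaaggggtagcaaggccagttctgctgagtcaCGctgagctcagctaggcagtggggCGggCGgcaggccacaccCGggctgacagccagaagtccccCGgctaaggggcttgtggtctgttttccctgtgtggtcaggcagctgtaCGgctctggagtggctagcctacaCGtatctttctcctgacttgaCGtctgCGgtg
Trp53bp1 H6, chr2:121126446-121126745: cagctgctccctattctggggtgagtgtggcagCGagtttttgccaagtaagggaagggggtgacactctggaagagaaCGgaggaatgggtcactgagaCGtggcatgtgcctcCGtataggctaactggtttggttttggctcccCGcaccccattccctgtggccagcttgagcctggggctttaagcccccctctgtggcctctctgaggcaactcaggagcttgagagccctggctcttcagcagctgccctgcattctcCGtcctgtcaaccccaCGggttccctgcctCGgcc
Bax promoter, chr7:45116326-45116525: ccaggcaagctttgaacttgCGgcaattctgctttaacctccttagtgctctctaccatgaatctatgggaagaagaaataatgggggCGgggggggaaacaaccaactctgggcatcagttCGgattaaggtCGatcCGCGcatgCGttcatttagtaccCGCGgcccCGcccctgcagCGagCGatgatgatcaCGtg

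The stretches differed in CpG content. The 200 bases before the Bax start held 13 CpGs, whereas 300 bases of Trp53bp1 H6 held 8 and of Bax H4 12, and the 240 bases of Anapc7 H3 held 8. Over the stretch shown for Bax H4, 12.4% and 12.5% at P2 and 45.1% and 47.6% at P60 of reads were methylated in eYFP- and eYFP+ cells, respectively. Over the Bax promoter stretch the values were 0.266% and 0.328% at P2 and 0.575% and 0.130% at P60.

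A CpG was covered by 24.2 reads on average in the P2 eYFP- pool, 24.4 in the P2 eYFP+ pool, with 43.7 and 43.5 for the same subtypes at P60. A level is the percentage of a region's CpG reads that were methylated, given with 95% Wilson intervals for a level and Newcombe intervals for a difference. Both cover counting error only, since mice within a pool cannot be told apart. Pairs of values are given in the order eYFP-, eYFP+. All P2 libraries are in 1 series of deposited files, P60 replicates 1 and 2 in another and P60 replicates 3 and 4 in the third, so age and the series of libraries cannot be told apart. P2 libraries called 55.6 to 58.7 Mb of HMRs and P60 libraries 42.7 to 46.1 Mb. Of 253 HMRs of the X chromosome present in all P60 male and no P60 female libraries, the P2 eYFP- library labelled female held 91.7% and the one labelled male 13.4%, against 13% and 83.8% for the P2 eYFP+ libraries labelled female and male. The X pattern of the P2 eYFP- libraries therefore went against their sex labels, and all 6 genes are autosomal. As a check of the cell type, the promoter at the canonical start of Ins2, an insulin gene, was 12.6% and 20.6% at P2 and 4.86% and 5.47% at P60 methylated. At the GENCODE gene start Ins2 was 69.0% to 78.6% methylated and G6pc2, another β-cell gene, 79.7% to 85.0%. At its canonical start G6pc2 was 15.1% and 12.7% at P2 and 2.04% and 2.35% at P60. The gene start and the canonical start also differed at other markers. The delta-cell gene Sst was lower at the canonical start (14.7% to 19.2%) and the endothelial gene Pecam1 higher there (78.4% to 83.0%). The median level at the gene start over the 4 pools was 5.50% to 7.79% for 9 β-cell genes, 0.690% to 1.46% for 3 alpha-cell genes, 29.1% to 34.5% for 2 delta-cell genes, 4.67% to 5.54% for 3 duct genes, 54.8% to 65.0% for 5 acinar genes, 52.1% to 63.2% for 3 endothelial genes, 65.9% to 68.4% for 3 immune genes and 34.3% to 43.4% for 3 mesenchymal genes. The alpha-cell and duct medians were thus lower than the β-cell median in every pool. The part of other cell types in the results was not tested.

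Whether the subtypes differed at these genes was asked first. At P2, 1 of the 36 HMRs passed Fisher's exact test with Benjamini-Hochberg adjustment over all merged HMRs, against 2.42% of the 84891 HMRs tested in the genome, and at P60 none of the 36 did, against 2.11% of 85601. The median difference of eYFP+ from eYFP- cells over the 36 HMRs was 0.269 points at P2, beside 0.205 over all HMRs. At P60 it was 0.157 points, beside -0.108. In simulated data with the depth of the P2 pools and 84891 regions, of which 200 were changed, the test recovered 28.5% of differences of 10 points and 88% of differences of 20 points. The simulation held counting error only, whereas the chi-square of the real P2 pools was inflated by 1.95 and 2054 HMRs passed. These rates therefore need not hold for the real pools. The tests between subtypes compare 2 pools of reads, and HMRs had been called from the same reads, so that a region can be listed because it was low in 1 pool.

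More HMRs passed with age than between subtypes. Here too HMRs had been called from the same reads, so that a region can be listed because it was low at P2 or at P60 alone. Bax H4 and Bcl2l1 H5 were called in the P2 pools alone, Anapc7 H8 in the P2 eYFP+ pool alone, and Anapc7 H4 and H6 in P60 pools alone. In eYFP- cells 15 of the 36 HMRs had a higher level at P60, against 42.4% of all HMRs, and 6 had a lower level, against 7.94%. In eYFP+ cells 15 were higher, against 39.9%, and 6 lower, against 10.4%. 20 HMRs passed in both subtypes, each in the same direction in both. The share of all HMRs that passed in both is not given here, so these counts and those by locus are descriptions. By locus, the HMRs that passed in both subtypes were 7 of 9 at Bcl2l1 (all higher at P60), 4 of 7 at Trp53bp1 (all higher), 2 of 6 at Bax (both higher), 6 of 9 at Anapc7 (2 higher and 4 lower), 1 of 3 at Nek4 (lower) and 0 of 2 at Ccng1. The median change over the 36 HMRs was 0.830 points in eYFP- and 0.696 points in eYFP+ cells, beside 2.92 and 2.38 over all HMRs. With the chi-square divided by its genome-wide inflation of 11.7 (eYFP-) and 11.8 (eYFP+), 1 HMR passed in each subtype, Trp53bp1 H6 and Bax H4, respectively, against 1.41% and 1.44% of all HMRs. The inflation is taken from the median chi-square of all HMRs, so a widespread difference with age raises it too. It cannot separate such a difference from extra spread between pools.

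**Figure D1:**
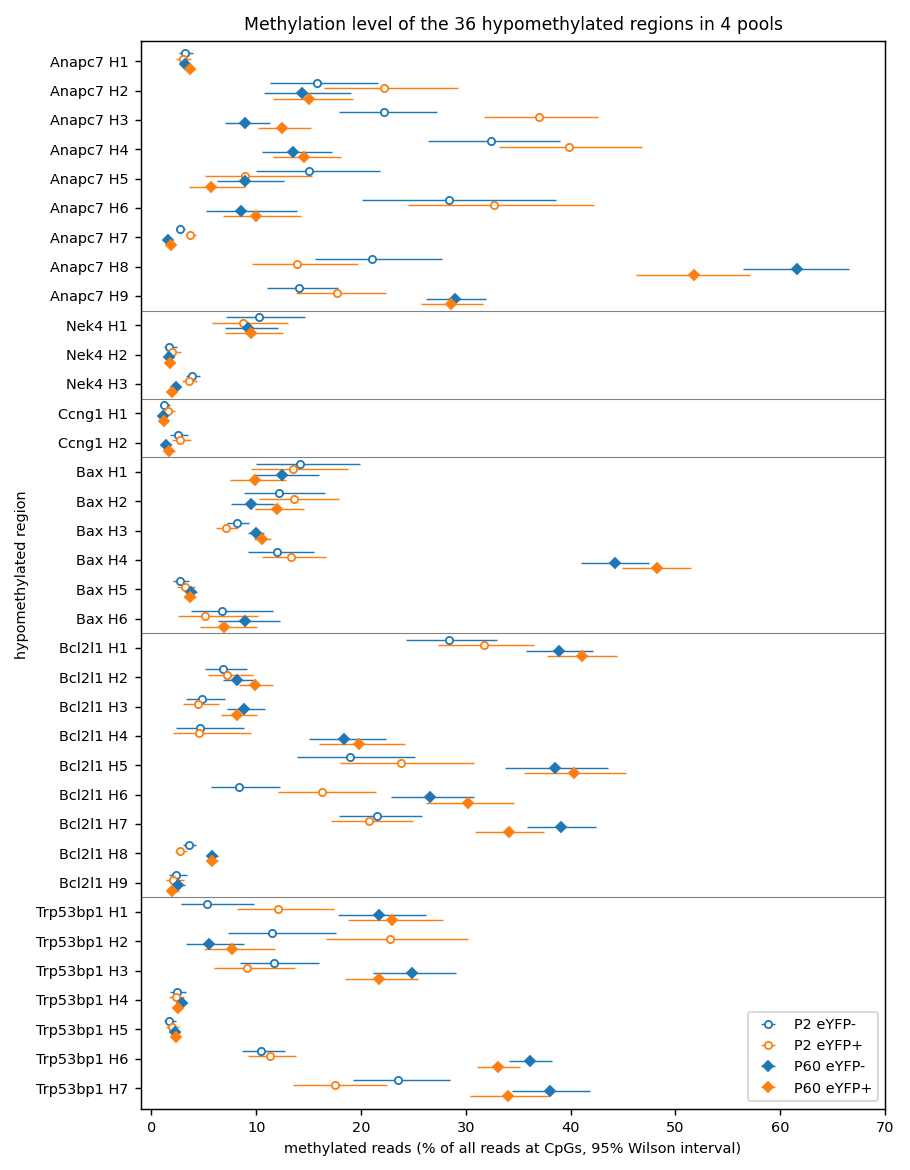
Methylation level (percent of reads at CpGs) of the 36 HMRs in the 4 pools, with 95% Wilson intervals. Open circles are P2 and filled diamonds P60, blue eYFP- and orange eYFP+. The pair of open symbols and the pair of filled symbols mostly lie together, and the ages stand apart at Bax H4 (12% and 13.3% against 44.2% and 48.2%), at Trp53bp1 H6 and at most HMRs of Bcl2l1.

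Each library's own HMR calls gave a measure with replicates, the number of bases of a merged HMR that the library called hypomethylated. The merged HMRs came from the pools, so the same limit of the list holds for these lengths. Over the 4 P2 and 8 P60 libraries, a two-sided exact permutation test over 495 regroupings, adjusted over 84472 autosomal HMRs, called 12 of the 36. At 10 of them the call was longer at P2, against 17% of all HMRs, and at 2 it was longer at P60, against 0.648%. The P2 libraries called more bases in the whole genome, and with lengths divided by each library's total, 7 of the 36 were longer at P2 (10.8% of all HMRs) and 12 at P60 (19.1%). Anapc7 H9, Bax H4, Bcl2l1 H4 and H7 and Trp53bp1 H3, H6 and H7 were longer at P2 on both scales, and Anapc7 H3 and H7 longer at P60 on both. Against only P60 replicates 1 and 2, 10 of these 12 did not overlap between ages, and against only P60 replicates 3 and 4, 11 did not. The 12 were chosen with those libraries, so this is a description. With those numbers of libraries the smallest p of the exact permutation test was 0.0286, and neither subset had a call after adjustment.

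**Figure D2:**
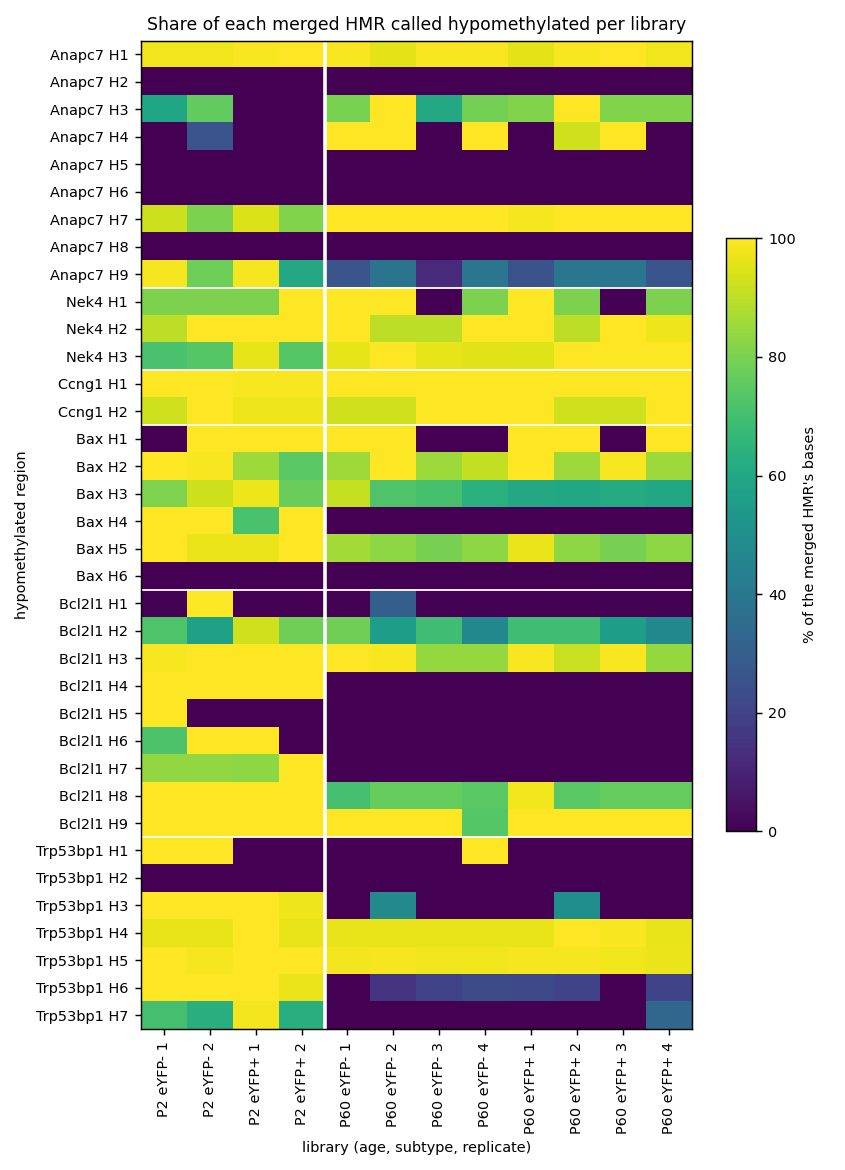
Percent of the bases of each merged HMR (rows) that each of the 12 libraries (columns) called hypomethylated, with P2 on the left of the white line. Bax H4 and Bcl2l1 H4 and H7 are called in all P2 and in no P60 library, and the promoter HMRs of Nek4, Ccng1 and Trp53bp1 (Nek4 H2, Ccng1 H2, Trp53bp1 H4) in all 12.

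Anapc7, the APC/C subunit, had the difference between subtypes at P2. Its GENCODE gene runs from 122559756 to 122639108 on chromosome 5, but its canonical transcript ends at 122582975, and 8 of the 9 HMRs lie beyond that end, in or near Atp2a2. Atp2a2 encodes SERCA2, the pump that returns calcium to the endoplasmic reticulum. Anapc7 H3 (chr5:122598771-122599084, 314 bp, 11 CpGs) lies in coding exon 14 of Atp2a2. At P2 it was methylated at 22.2% (95% Wilson interval 17.9 to 27.2%, 306 reads) in eYFP- and 37.0% (95% Wilson interval 31.7 to 42.6%, 300 reads) in eYFP+ cells, and at P60 at 8.94% (95% Wilson interval 7.01 to 11.3%, 671 reads) and 12.5% (95% Wilson interval 10.2 to 15.2%, 666 reads). The level was thus highest in neonatal eYFP+ cells and lowest in adult eYFP- cells.

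The eYFP+ minus eYFP- difference of Anapc7 H3 at P2 was 14.8 points (95% interval 7.52 to 21.8), adjusted p = 0.01 by Fisher's exact test over all HMRs. The call was lost when the chi-square was divided by its genome-wide inflation of 1.95 (adjusted p = 0.535). At P60 the difference was 3.52 points (95% interval 0.20 to 6.86), adjusted p = 0.329 by Fisher's exact test. The 2 P2 eYFP- libraries called 185 and 239 bp and the 2 P2 eYFP+ libraries 0 and 0 bp. In the P60 libraries the calls were 251, 314, 190 and 248 bp for eYFP- and 254, 314, 254 and 254 bp for eYFP+ replicates 1 to 4. The HMR was therefore called in every library except the P2 eYFP+ ones. Its calls were longer at P60 than at P2 (adjusted p = 0.0256, exact permutation test), and this call was lost without P2 eYFP- replicate 1 or without either P2 eYFP+ library. With 2 libraries against 2 the smallest p an exact permutation test can give is 0.333.

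Whether the subtype difference of Anapc7 H3 itself changed with age was tested on log odds. The change was -0.35 ± 0.25 (SE) by a Wald test on pooled reads, which did not pass after adjustment over all HMRs. None of the 36 HMRs passed, against 1.16% of all. With age the level fell by 13.3 points in eYFP- and by 24.5 points in eYFP+ cells, adjusted p = 2.17e-07 and 4.02e-16 by Fisher's exact test.

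Single CpGs of the stretch shown gave the same order at most sites. At the first CpG, 34.8% of 23 reads were methylated in P2 eYFP- and 53.6% of 28 in P2 eYFP+ cells, and at the last 23.1% of 26 and 46.4% of 28. At the fifth CpG the order was turned, with 6.25% of 32 and 0% of 20 reads. No single CpG passed the genome-wide test between subtypes.

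**Figure D3:**
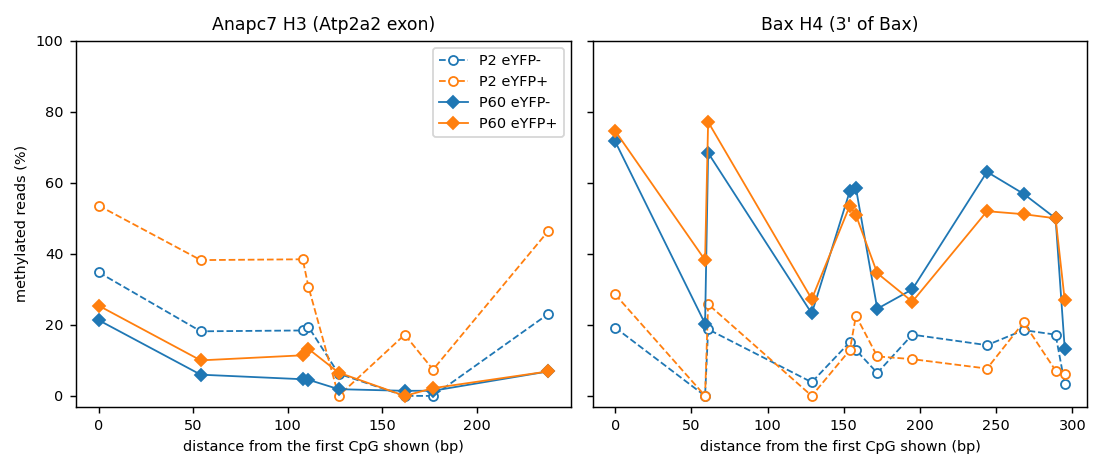
Methylated reads (%) at each CpG of the stretches shown for Anapc7 H3 (left) and Bax H4 (right), against the distance from the first CpG in bp. At Anapc7 H3 the P2 eYFP+ pool lies highest at 7 of 8 CpGs, and at Bax H4 both P60 pools lie above both P2 pools at all 12 CpGs.

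Other HMRs around Anapc7 moved with age in both directions. Anapc7 H4, in intron 11 of Atp2a2 (chr5:122603443-122603911), was 32.4% and 39.8% at P2 and 13.5% and 14.6% at P60, and H6, in intron 5 (chr5:122620069-122620238), was 28.4% and 32.7% at P2 and 8.59% and 9.96% at P60 in eYFP- and eYFP+ cells. Both fell with age in both subtypes, with adjusted p between 7.27e-11 and 0.000278 by Fisher's exact test. H6 was called as an HMR in no library. The wide HMR over the Atp2a2 promoter, H7 (chr5:122632723-122641188, 8466 bp), was 2.75% and 3.73% at P2 and 1.58% and 1.92% at P60, a fall by 1.17 points in eYFP- and 1.81 points in eYFP+ cells.

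Anapc7 H7 was also longer at P60 in the libraries. Its calls were 7834 and 6790 bp in P2 eYFP- and 8024 and 6857 bp in P2 eYFP+ libraries. At P60 they were 8466, 8466, 8466 and 8466 bp in eYFP- and 8362, 8466, 8466 and 8466 bp in eYFP+ libraries. The ages did not overlap, at 7376 ± 644 bp (SD, n = 4) and 8453 ± 36.8 bp (SD, n = 8), adjusted p = 0.0143 by the exact permutation test, whose smallest unadjusted p was 0.00202. Replicate 2 of both P2 subtypes had shorter calls than replicate 1.

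Beyond the Atp2a2 promoter the direction turned. H8 (chr5:122649014-122649168) was 21.1% and 13.9% at P2 and 61.6% and 51.7% at P60, and H9 (chr5:122651803-122652405) was 14.1% and 17.7% at P2 and 29.0% and 28.6% at P60, both intergenic. H8 rested on 6 CpGs and was called in no library. It was listed through the P2 eYFP+ pool alone (155 bp), so a low level at P2 was a condition of its listing. H9 was called over 595 and 469 bp and 595 and 363 bp in P2 eYFP- and eYFP+ libraries and over 160, 231, 72 and 237 bp and 154, 237, 237 and 160 bp in the P60 ones. Every P2 library was longer than every P60 library (adjusted p = 0.0143, exact permutation test). The downstream flank of the gene outside HMRs was 72.4% and 72.7% at P2 and 83.4% and 82.7% at P60 methylated.

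At the Anapc7 promoter itself no comparison passed. H1 (chr5:122559444-122561535) covers the canonical start and was 3.21% and 2.99% at P2 and 3.24% and 3.67% at P60. Within 500 bp of the canonical start the levels were 0.345% and 0.627% at P2 and 0.431% and 0.441% at P60. Its library calls ran from 2007 to 2092 bp over all 12 libraries. H2 and H5, between the Anapc7 end and the Atp2a2 promoter, had levels between 5.70% and 22.2% and passed in no comparison.

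The promoter HMRs of Nek4 and Ccng1 showed little methylation in any pool. The Nek4 promoter HMR, H2 (chr14:30672877-30674112, over the first exon on chromosome 14), was 1.71% and 2.00% at P2 and 1.71% and 1.80% at P60. Its library calls lay between 1113 and 1236 bp in all 12 libraries. The Ccng1 promoter HMR, H2 (chr11:40645252-40646570, over the first exon), was 2.51% and 2.69% at P2 and 1.35% and 1.72% at P60, with calls of 1222 to 1319 bp. The subtypes differed by at most 1 point at both HMRs at either age, and the widest interval of a difference there was that of Ccng1 H2 at P2, -1.07 to 1.45 points.

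Small falls with age passed at 2 HMRs. Ccng1 H2 fell by 1.16 points in eYFP- cells (adjusted p = 0.0219, Fisher's exact test) and did not pass in eYFP+ cells, where the difference was -0.965 points (95% interval -2.09 to -0.0305) and adjusted p = 0.0968. Nek4 H3 (chr14:30721816-30724317), the shared promoter of Spcs1 and Glt8d1, fell by 1.56 points in eYFP- and 1.58 points in eYFP+ cells, adjusted p = 6.19e-05 and 4.32e-05 by Fisher's exact test. Spcs1 encodes a subunit of the signal peptidase. Nek4 H3 was called over 1781 and 1842 bp in P2 eYFP-, 2406 and 1847 bp in P2 eYFP+ and 2378 to 2502 bp in P60 libraries, which missed the adjusted threshold (adjusted p = 0.0532, exact permutation test).

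At the other HMRs of these loci no comparison of levels passed. Nek4 H1, at the first exon of Itih1 (chr14:30664983-30665382), was 10.3% and 8.75% at P2 and 9.25% and 9.47% at P60. It was called over 321 to 400 bp in all 4 P2 libraries and in 6 of 8 P60 libraries, and over 0 bp in P60 replicate 3 of both subtypes. Ccng1 H1 (chr11:40623737-40625632), the shared promoter of Hmmr, a mitotic spindle protein, and Nudcd2, was 1.23% and 1.60% at P2 and 1.13% and 1.16% at P60. Its calls were 1896 bp in 10 libraries and 1880 bp in both P2 eYFP+ libraries. Outside HMRs the upstream flank of Ccng1 was 73.7% and 73.6% at P2 and 67.2% and 66.8% at P60 methylated, lower at P60 in both subtypes.

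Bax, the pro-apoptotic gene, had an unmethylated promoter at both ages and an HMR beyond its 3′ end with a higher level at P60. The promoter HMR, H5 (chr7:45115484-45117194), was 2.70% and 3.17% at P2 and 3.79% and 3.66% at P60, and the 1000 bp around the start 0.825% and 1.11% at P2 and 0.832% and 0.716% at P60. H4 (chr7:45110283-45111016, 734 bp, 16 CpGs) begins at the 3′ end of Bax and reaches into the space before Ftl1, the ferritin light chain gene. Its level at P2 was 12% (95% Wilson interval 9.24 to 15.5%, 416 reads) in eYFP- and 13.3% (95% Wilson interval 10.5 to 16.6%, 474 reads) in eYFP+ cells. At P60 it was 44.2% (95% Wilson interval 41.0 to 47.4%, 903 reads) and 48.2% (95% Wilson interval 44.9 to 51.5%, 884 reads).

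The rise of Bax H4 with age was 32.2 points (95% interval 27.4 to 36.5) in eYFP- and 34.9 points (95% interval 30.2 to 39.2) in eYFP+ cells, adjusted p = 1.31e-31 and 2.26e-38 by Fisher's exact test. In the pools H4 was called over 734 bp in both subtypes at P2 and over 0 bp at P60, so it was listed through the P2 reads alone. The P2 libraries called 734 and 734 bp (eYFP-) and 523 and 734 bp (eYFP+), and all 8 P60 libraries 0 bp. The ages did not overlap (adjusted p = 0.0143, exact permutation test). Between subtypes the difference was 1.27 points (95% interval -3.17 to 5.63) at P2 and 4.00 points (95% interval -0.618 to 8.60) at P60, and neither passed. In the stretch shown, the first CpG went from 19.2% of 26 and 28.6% of 28 reads at P2 to 71.6% of 67 and 74.6% of 63 reads at P60, while the second, at 0% of 17 and 0% of 31 reads at P2, reached 20.3% of 59 and 38.2% of 68.

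At the other HMRs of the Bax locus differences were small. H3 (chr7:45106296-45109928), over the Ftl1 gene and promoter, was 8.21% and 7.15% at P2 and 9.95% and 10.6% at P60. The rise with age was 1.75 points in eYFP- and 3.43 points in eYFP+ cells, adjusted p = 0.0208 and 4.16e-06 by Fisher's exact test. Its calls were 2926 and 3351 bp and 3545 and 2802 bp at P2, and 3313, 2632, 2581 and 2304 bp in eYFP- and 2192, 2175, 2240 and 2175 bp in eYFP+ libraries at P60. H3 was the 1 of the 36 HMRs whose lengths did not overlap between subtypes at P60, against 0.528% of all HMRs. Its unadjusted p of 0.0286 is the smallest the exact permutation test over 4 against 4 libraries can give, and the adjusted p was 1. The pooled levels at P60 differed by 0.626 points (95% interval -0.444 to 1.70), adjusted p = 0.681 by Fisher's exact test.

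The calls of the Bax promoter HMR, H5, were 1711 and 1662 bp (eYFP-) and 1662 and 1711 bp (eYFP+) at P2, and 1472, 1423, 1359 and 1423 bp and 1662, 1423, 1359 and 1423 bp at P60. They were shorter at P60 with adjusted p = 0.0357 (exact permutation test), with 1 P60 eYFP+ library as long as 2 of the P2 ones. The direction turned, with adjusted p = 0.0835 by the exact permutation test, when lengths were divided by each library's total. H1, H2 and H6, in Gys1 and near Dhdh, had levels of 5.11% to 14.2% and passed in no comparison of levels.

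Bcl2l1, the gene of Bcl-xL, had higher levels at P60 at 7 of its 9 HMRs in both subtypes. Of all HMRs, 42.4% were higher at P60 in eYFP- and 39.9% in eYFP+ cells. Among HMRs away from canonical starts the shares were 44.7% and 42.2%, so a rise was common in the genome. Of its 9 HMRs, 5 lie in intron 2 (H3 to H7), H8 at the promoter, H9 at the promoter of Tpx2, a spindle assembly factor, and H1 and H2 beyond the 3′ end. In eYFP- and eYFP+ cells H4 was 4.60% and 4.51% at P2 and 18.4% and 19.8% at P60. H6 (chr2:152646352-152647267) was 8.39% and 16.2% at P2 and 26.6% and 30.2% at P60, and H7 (chr2:152659631-152660876) was 21.6% and 20.8% at P2 and 39.1% and 34.1% at P60. The P60 level was above both P2 levels at all 5 intronic HMRs and in both subtypes, with adjusted p from 3.07e-09 to 0.0137 by Fisher's exact test.

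The libraries gave the same picture at H4 and H7. H4 was called over 569 bp in all 4 P2 libraries and 0 bp in all 8 P60 libraries. H7 was called over 1043 and 1043 bp and 1033 and 1246 bp in P2 eYFP- and eYFP+ libraries and 0 bp in all P60 ones. Neither overlapped between ages (adjusted p = 0.0143 for each, exact permutation test). H6 was called over 661 and 916 bp and 916 and 0 bp at P2, so that 1 P2 eYFP+ library held no call, and in no P60 library (adjusted p = 0.0709, exact permutation test). The P60 pools, with more reads than a single library, still held parts of these HMRs. H6 was called over 470 bp in both P60 pools. H4 was called over 361 bp and H7 over 611 bp in the P60 eYFP+ pool, and both over 0 bp in the P60 eYFP- pool. H3, nearest the 3′ end, was called over 468 to 555 bp in all 12, and its level was 4.81% and 4.42% at P2 and 8.84% and 8.19% at P60.

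The promoter HMR of Bcl2l1, H8 (chr2:152670707-152674022, 3316 bp), had a higher level and shorter calls at P60. Its level was 3.58% and 2.77% at P2 and 5.79% and 5.77% at P60, higher at P60 with adjusted p = 2.56e-06 (eYFP-) and 7.18e-12 (eYFP+) by Fisher's exact test. Within 500 bp of the canonical start the levels were 0.472% and 1.09% at P2 and 0.424% and 0.258% at P60, and the fall with age passed in eYFP+ cells (adjusted p = 0.000686, Fisher's exact test). All P2 libraries called 3316 bp, and the P60 libraries 2342, 2533, 2533 and 2469 bp (eYFP-) and 3244, 2467, 2533 and 2533 bp (eYFP+). The ages did not overlap (adjusted p = 0.0143, exact permutation test), and with lengths divided by each library's total the call was lost (adjusted p = 1).

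Outside HMRs the body of Bcl2l1 was 70.3% and 69.6% at P2 and 80.8% and 79.8% at P60 methylated, the widest change with age among the 6 gene bodies. Over the whole genome the level outside HMRs was 77% and 77.7% at P2 and 77.3% and 76.5% at P60. The flanks of Bcl2l1 were 71.0% and 73.0% at P2 and 72.0% and 71.1% at P60 upstream and 76.7% and 77.1% at P2 and 78.0% and 77.6% at P60 downstream. Beyond the 3′ end, H1, in coding exon 5 of Cox4i2 (chr2:152606332-152607012), was 28.4% and 31.7% at P2 and 38.9% and 41.0% at P60 and passed with age in both subtypes, while H2 and the Tpx2 promoter H9 passed in neither.

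Between subtypes no HMR of Bcl2l1 passed. The widest difference at P2 was that of H6, 7.86 points (95% interval 2.19 to 13.7), adjusted p = 0.129 by Fisher's exact test. At P60 the difference of H7 was -4.98 points (95% interval -9.62 to -0.299), adjusted p = 0.322 by Fisher's exact test. H4 differed by -0.0864 points (95% interval -4.95 to 5.38) at P2, on 174 and 133 reads.

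**Figure D4:**
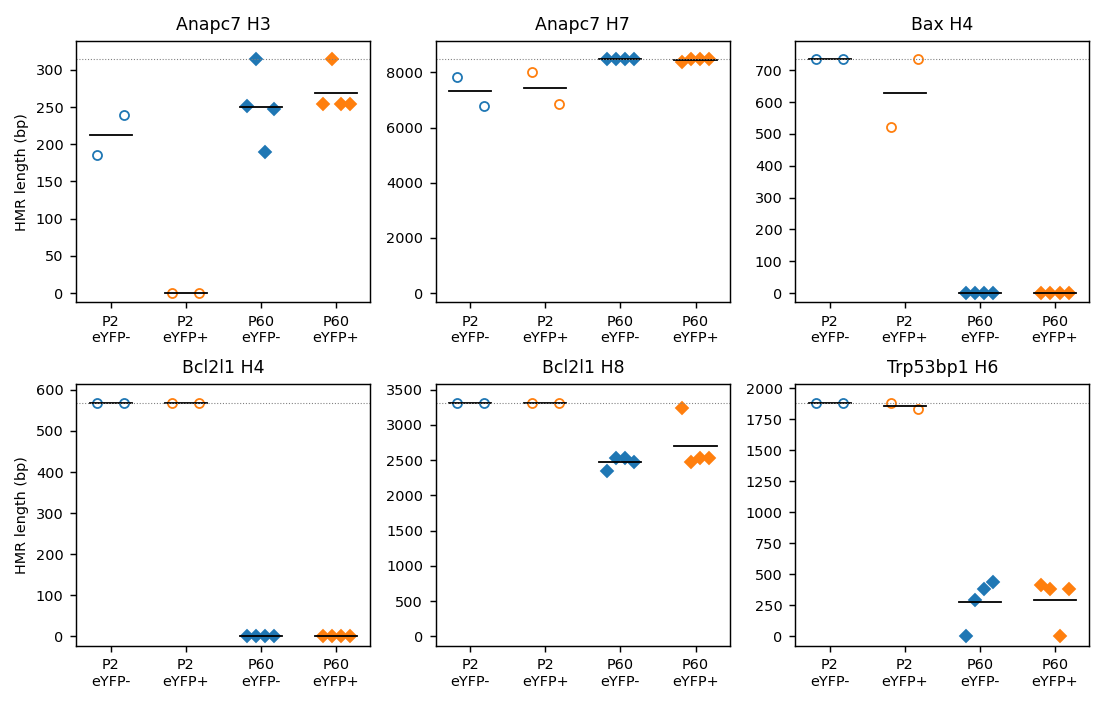
HMR length (bp) called in each of the 12 libraries at 6 HMRs. Points are libraries, black bars group means and the dotted line the length of the merged HMR. Anapc7 H3 is at 0 in both P2 eYFP+ libraries alone, Anapc7 H7 is shorter at P2, and Bax H4, Bcl2l1 H4, Bcl2l1 H8 and Trp53bp1 H6 are longer at P2 than in any P60 library.

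Trp53bp1 had a stable promoter and HMRs with higher levels at P60 on both sides of it. GENCODE places the gene start at 121120840 on chromosome 2, far upstream of the canonical start at 121101892 (the gene is on the minus strand). The HMR at the canonical start, H4 (chr2:121100866-121102703), was 2.44% and 2.32% at P2 and 2.87% and 2.52% at P60, with calls of 1778 to 1838 bp in all 12 libraries. The HMR at the far upstream start, H5 (chr2:121119595-121120853), was 1.68% and 1.94% at P2 and 2.26% and 2.30% at P60. Its calls were 1242 to 1259 bp at P2 and 1220 to 1242 bp at P60 (adjusted p = 0.0457, exact permutation test), a difference of -20.1 bp on average that turned to 266.5 bp longer at P60 when lengths were divided by each library's total (adjusted p = 0.00872).

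H6 (chr2:121125256-121127139, 1884 bp, 35 CpGs) is a promoter of the neighbour Map1a, which encodes a microtubule-associated protein of neurons. Its level at P2 was 10.5% (95% Wilson interval 8.60 to 12.8%, 838 reads) in eYFP- and 11.3% (95% Wilson interval 9.21 to 13.8%, 744 reads) in eYFP+ cells, and at P60 36.1% (95% Wilson interval 34.1 to 38.2%, 2113 reads) and 33.1% (95% Wilson interval 31.0 to 35.2%, 1984 reads). It was called over 1884 and 1884 bp and 1884 and 1832 bp in P2 libraries, and over 0, 293, 380 and 440 bp (eYFP-) and 416, 380, 0 and 380 bp (eYFP+) at P60. Every P2 library called over 4 times the bases of any P60 library, and 2 P60 libraries called none.

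With age H6 rose by 25.6 points (95% interval 22.6 to 28.4) in eYFP- and 21.8 points (95% interval 18.6 to 24.7) in eYFP+ cells, adjusted p = 7.69e-47 and 1.19e-31 by Fisher's exact test. Its lengths gave adjusted p = 0.0143 (exact permutation test).

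Further HMRs of the locus followed. H3, in intron 4 of Trp53bp1 (chr2:121098701-121099165), was 11.7% and 9.13% at P2 and 24.9% and 21.7% at P60. It was called over 465 and 465 bp and 465 and 453 bp at P2, and at P60 in replicate 2 of each subtype alone, over 219 bp (eYFP-) and 231 bp (eYFP+). H7, in Map1a intron 1, was 23.5% and 17.6% at P2 and 38.0% and 34.1% at P60 and was called over 459 and 408 bp and 640 and 408 bp at P2 and in 1 P60 library over 216 bp. Both gave adjusted p = 0.0143 by the exact permutation test, with no overlap between ages.

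H1 and H2 of Trp53bp1 did not pass between subtypes at P2. H1, in intron 17 (chr2:121041942-121042502), was 5.29% and 12% at P2 and 21.7% and 23.0% at P60. It was called over 561 and 561 bp in P2 eYFP- and 0 and 0 bp in P2 eYFP+ libraries, and at P60 in 1 eYFP- library (561 bp). The P2 difference in level was 6.75 points (95% interval 0.835 to 12.7), adjusted p = 0.254 by Fisher's exact test. H2, in intron 10 (chr2:121074590-121074817, 5 CpGs), was 11.5% and 22.8% at P2 and 5.45% and 7.72% at P60, and the P2 difference was 11.3 points (95% interval 2.64 to 19.8), adjusted p = 0.179 by Fisher's exact test. With age H2 fell by 15.0 points in eYFP+ cells (adjusted p = 0.000159), and in eYFP- cells the difference was -6.03 points (95% interval -12.5 to -0.668) (adjusted p = 0.0637), both by Fisher's exact test.

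Over libraries at P2, the lengths of 7 of the 36 HMRs did not overlap between subtypes, against 13.2% of all HMRs. They were longer in eYFP- cells at Anapc7 H3, Ccng1 H1, Bax H2 and Trp53bp1 H1 and longer in eYFP+ cells at Anapc7 H1, Nek4 H3 and Bcl2l1 H2. With 2 libraries a subtype the exact permutation test cannot give a p under 0.333. Without 1 of the P2 libraries the count rose to between 12 and 14 of 36, and the share of all HMRs to between 27.1% and 28.8%. At Anapc7 H1 the calls were 2049 and 2049 bp against 2069 and 2092 bp, and at Bcl2l1 H2 484 and 382 bp against 618 and 523 bp, while Anapc7 H3 and Trp53bp1 H1 were the HMRs present in both libraries of 1 subtype and absent from both of the other. At P60 the calls of Trp53bp1 H1 were 0 bp in 7 of 8 libraries, and those of Anapc7 H3 above 0 in all 8.

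Differentially methylated regions (DMRs) between subtypes were rebuilt by a gate like that of the study. A DMR was a part of an HMR of 1 pool outside the HMRs of the other, of at least 50 bp. It also held at least 2 CpGs whose probability of a lower level in the pool with the HMR was over 95%. At P2, 3 of the 6 loci held a DMR (Anapc7, Bax and Bcl2l1), against 18.4% of all 21757 loci, and at P60 1 locus did (Bcl2l1), against 10.9%. The loci here hold 2 to 9 HMRs each. With at least 3 such CpGs the counts were 1 of 6 at P2, against 5.35% of all loci, and 0 at P60, against 3.53%. No test was made of these counts.

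The DMR with the most differing CpGs was the stretch of Anapc7 H3 printed above (chr5:122598783-122599021), with 4 of 8 CpGs, at 15.8% (95% Wilson interval 11.6 to 21.1%, 228 reads) in eYFP- and 30.3% (24.6 to 36.7%, 218 reads) in eYFP+ cells. In the Bax locus, chr7:45107537-45107736 lies within H3 over Ftl1 and was 27.3% (95% Wilson interval 20.8 to 35.0%, 150 reads) in eYFP- and 46.6% (38.2 to 55.1%, 131 reads) in eYFP+ cells at P2. At P60 it was 32.3% and 39.2%, in the same order. A second region around Anapc7, chr5:122604094-122604417 (H5), had the opposite order, at 15.0% (95% Wilson interval 10.03 to 21.8%, 140 reads) in eYFP- and 8.94% (5.07 to 15.3%, 123 reads) in eYFP+ cells. In the Bcl2l1 locus the P2 region was H1 over Cox4i2, at 28.4% and 31.7%, and the P60 region part of H7, at 24.6% and 21.4%. These were chosen for their difference, so the values are descriptions.

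Single CpGs were tested where both pools had at least 10 reads. Between subtypes none of the 6050 CpGs tested at P2 and none of the 6152 at P60 passed Fisher's exact test with genome-wide Benjamini-Hochberg adjustment, against 1.04e-05% and 5.05e-06% of all CpGs. At an unadjusted p under 0.05 there were 171 (2.83%, against 2.72% of all CpGs) at P2 and 181 (2.94%, against 3.42%) at P60. With age, 60 CpGs were higher at P60 in eYFP- cells and 5 lower, against 0.658% and 0.0657% of all CpGs, on 6095 tested. In eYFP+ cells 59 were higher and 11 lower of 6080, against 0.619% and 0.104%. 25 CpGs passed in both subtypes, and the share of all CpGs that did is not given here. Of the 65 in eYFP- cells 24 lie in HMRs and 41 outside, and by locus 21 were at Anapc7, 18 at Bcl2l1, 17 at Trp53bp1, 7 at Bax, 2 at Nek4 and none at Ccng1.

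The promoters of the 6 genes, the CpGs within 500 bp of the GENCODE gene start, passed in no comparison. Of all promoters tested, 1.07% differed between subtypes at P2, 1.61% at P60, 18.1% with age in eYFP- cells and 22% with age in eYFP+ cells. For Nek4, Ccng1 and Bax, whose gene start is at or within 10 bp of the canonical start, the levels were 2.60% and 3.95% at P2 and 2.95% and 2.91% at P60, 1.36% and 1.28% at P2 and 1.04% and 1.18% at P60 and 0.825% and 1.11% at P2 and 0.832% and 0.716% at P60, respectively, in eYFP- and eYFP+ cells. At the canonical start the levels of Trp53bp1 were 1.01% and 0.865% at P2 and 1.06% and 1.01% at P60, and around its far upstream gene start 8.99% and 6.34% at P2 and 7.35% and 9.10% at P60. With the window from 1000 bp upstream to 500 bp downstream, 2 of the 6 passed with age in each subtype, against 25.7% (eYFP-) and 29.8% (eYFP+) of all promoters.

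The wider pathways were described by 61 promoters of APC/C subunits and activators, NEK kinases, cyclins related to Ccng1, the BCL2 family and the p53 and 53BP1 pathway. Most were unmethylated, 48 to 50 of them under 10% in each pool. Between subtypes at P2 none of the 61 passed, and the median difference was 0.0110 points. At P60 Cdc16, an APC/C subunit, and Pmaip1 (Noxa), a pro-apoptotic BH3 protein, were higher in eYFP+ cells, at 8.09% and 11.1% for Cdc16 and 2.12% and 4.63% for Pmaip1 in eYFP- and eYFP+ cells. Bik, another BH3 protein, was higher in eYFP- cells, at 5.62% and 3.65%. The adjusted p were 0.0113, 2.37e-07 and 0.00489, respectively, by Fisher's exact test over all promoters, of which 1.61% passed. At canonical starts these 3 passed too, as did Mdm4, a p53 inhibitor, at 1.58% and 3.43%.

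With age, 4 of the 61 pathway promoters rose and 3 fell in eYFP- cells, and 5 rose and 3 fell in eYFP+ cells, where 18.1% and 22% of all promoters passed in either direction. The median changes over the 61 were -0.135 and -0.148 points. At canonical starts 2 rose and 5 fell in eYFP- cells, and 4 rose and 2 fell in eYFP+ cells. The widest changes that passed in both subtypes were those of Rif1, Bbc3 and Mad2l2. Rif1, a partner of 53BP1 at breaks, was 60.1% and 48.5% at P2 and 78.1% and 74.4% at P60, and Mad2l2, the REV7 subunit of shieldin, 20.4% and 18.8% at P2 and 32.4% and 30.4% at P60. Bbc3 (PUMA), a p53 target that promotes apoptosis, was 59.3% and 56.3% at P2 and 75.6% and 73.0% at P60. The place of the start mattered here, since within 500 bp of the canonical start Rif1 and Mad2l2 were under 2% in all pools and passed in neither subtype, while Bbc3 was 34.8% and 27.3% at P2 and 44.6% and 45.9% at P60 and passed in both (adjusted p = 0.00521 and 3.08e-09, Fisher's exact test).

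Across the 36 HMRs most changes with age of over 10 points lay away from transcript starts. Of the 13 HMRs that overlap a canonical transcript start of any coding gene, 3 rose and 3 fell in eYFP- cells, with a median absolute change of 1.1 points, and Trp53bp1 H6 at Map1a was the one that changed by over 10 points. Of the other 23, 12 rose and 3 fell, with a median absolute change of 13.3 points. Over the genome 29.5% of HMRs at starts rose and 12.5% fell, and 44.7% of other HMRs rose and 7.11% fell. In eYFP+ cells the median absolute changes of the 13 and the 23 were 0.719 and 12.6 points. Among the 23, Anapc7 H8, Bax H4 and Bcl2l1 H5 were called in P2 pools alone and Anapc7 H4 and H6 in P60 pools alone. The way HMRs were listed therefore also bears on this contrast. The 13 had a median of 4.09 CpGs per 100 bp and the 23 a median of 1.69, so that starts and CpG density cannot be told apart here, and more CpGs also give more reads to a test.

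**Figure D5:**
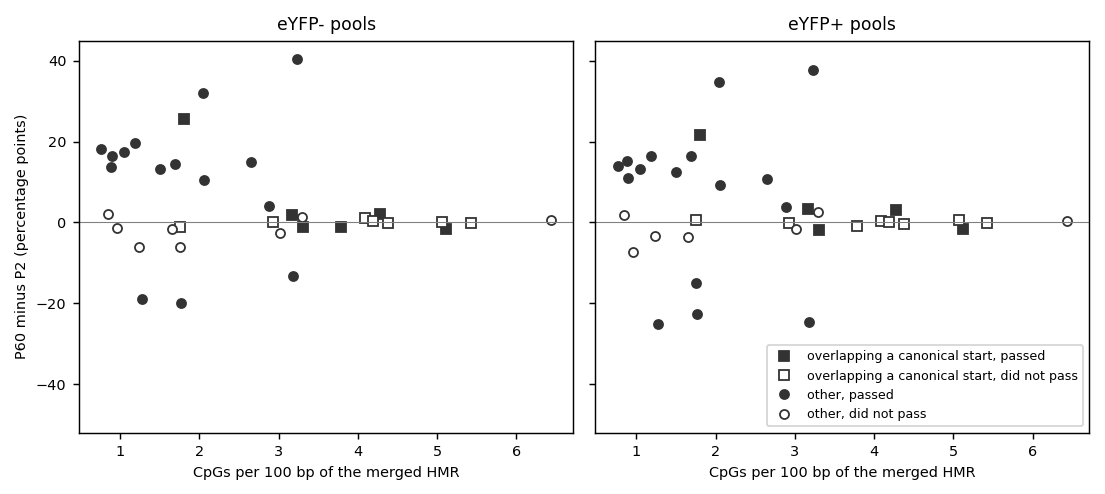
Change of level from P2 to P60 (percentage points) of the 36 HMRs against their CpG density, in eYFP- (left) and eYFP+ (right) pools. Squares are the 13 HMRs that overlap a canonical start and circles the other 23, filled where Fisher's exact test passed. Changes above 10 points lie at densities under 4 CpGs per 100 bp.

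Sequence motifs were counted on both strands in the central 300 bp of each HMR. The forkhead core TGTTTAC was in none of the 36, against 7.79% of all HMRs, and the homeodomain core TAATTA in 2 (Anapc7 H7 and Bcl2l1 H7), against 10.8%. The E-box CAGATG, of the kind that Neurod1 binds, was in 11, against 25.3%, among them Anapc7 H3, Bcl2l1 H5 and H6 and Trp53bp1 H6. A pair of p53 half-sites within 500 bp of the gene start was in none of the 6 genes, against 0.188% of all coding genes. A match is a description of letters and says nothing of binding.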

How the data were processed

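DNA of sorted β cells was bisulfite-sequenced after tagmentation in 12 libraries. Per the labels and the study's methods, the authors trimmed reads with Trim Galore 0.6.6 and cutadapt 1.16, mapped them to mm39 with abismal, used SAMtools 1.5, and called HMRs and compared CpGs with MethPipe. The deposited tables of 1 pool per subtype and age give counts of methylated and unmethylated reads at each CpG, and the deposited HMR files give regions per library and per pool. The deposited tables also hold the authors' score for a difference at each CpG, and other files hold their DMRs; neither was used. Conversion, duplicates and mapping can shift the counts and were not examined here.

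The HMRs of the 4 pools were merged, and reads were summed over merged HMRs, promoters (500 bp on each side of the GENCODE vM39 gene start) and CpGs. Each was compared by a two-sided Fisher's exact test with Benjamini-Hochberg adjustment over the genome, at an adjusted p of 0.05, with at least 20 reads in both pools (10 for a CpG). These p-values compare pools, not mice. HMR bases per library were compared by two-sided exact permutation tests, which measure only the spread between these libraries. They treat each library as a separate unit, though it is not stated whether libraries share mice. Python 3.11.15, numpy 2.4.6, pandas 2.3.3, scipy 1.17.1, numba 0.67.0 and matplotlib 3.10.9 were used, and the tests were tested on simulated data.

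The members, gene lists and tests were chosen with earlier results of these data known. All 6 genes were described in full, except that 1 sequence is not reported here. Pathway genes were named where their promoter passed between subtypes and, for age, where they were the 3 with the largest change that passed in both subtypes. The replicate number was checked as a pairing of P60 libraries. Deviations from the group means correlated at 0.150, 0.204, 0.309 and 0.140 between libraries of the same number, and at -0.261 to 0.232 between libraries of unlike numbers. P60 eYFP- replicate 2 thus correlated more with eYFP+ replicate 4 (0.232) than with eYFP+ replicate 2 (0.204). Among unlike numbers, odd with odd and even with even correlated at 0.0103 to 0.232, and odd with even at -0.261 to -0.0546. Odd P60 replicates held 38052 to 44636 HMRs and even ones 46269 to 49939. The P60 libraries thus grouped by odd and even number more than by replicate number, and such a block was not tested. At P2 the correlation between libraries of the same number was 0.0142. Promoters at canonical starts, loci around canonical transcripts and the change of the subtype difference with age were added after the data were seen.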

Additional observations from a re-analysis of the deposited data

Results flagged for a closer look

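Library HMR lengths in the P60 groups of 4 were searched for single libraries that stood far from the other 3 (the gap to the nearest library, divided by the group's range, above Dixon's 95% critical value). Of 42 groups with any spread, 15 held one, where chance flags about 1 in 20 groups. Many of these lengths take few distinct values, and the groups are not independent. None of the values was left out, and no explanation was tested.

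Among eYFP- libraries, replicate 2 was low at Anapc7 H1 (2007 bp, the next 2069) and high at Nek4 H3 (2502 bp, the next 2406), at Bcl2l1 H1 (207 bp, the others 0) and at Trp53bp1 H3 (219 bp, the others 0). Replicate 3 held 0 bp at Anapc7 H4, where the others held 469. Replicate 4 was low at Bcl2l1 H9, the Tpx2 promoter (1108 bp, the others 1501), and was the one P60 library with Trp53bp1 H1 (561 bp, the others 0).

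Among eYFP+ libraries, replicate 1 was low at Anapc7 H7, the Atp2a2 promoter (8362 bp, the others 8466), and at Nek4 H3 (2378 bp, the next 2497), and high at the Bcl2l1 promoter H8 (3244 bp, the next 2533). Replicate 2 was high at Anapc7 H3 (314 bp, the others 254) and at Trp53bp1 H3 (231 bp, the others 0). Replicate 3 held 0 bp at Bax H1 (the others 362) and at Trp53bp1 H6 (the next 380), and replicate 4 held 216 bp at Trp53bp1 H7 (the others 0).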

How the results depend on the processing

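Of the counts under other settings, 70 stayed within 1.5 times the value reported and 28 did not. With the chi-square divided by the genome-wide inflation, HMRs that passed numbered 0 of 36 between subtypes at P2 (0.0624% of all HMRs), and 1 with age in each of eYFP- and eYFP+ cells (1.41% and 1.44%). For age, the inflation also takes in any widespread difference between P2 and P60. With 50 kb on each side, 3 of 64 HMRs passed at P2 (2.42% of all HMRs), and 37 and 36 with age (50.3% in each subtype). By library length 21 passed with age, where 17% of all autosomal HMRs were longer at P2 and 0.648% longer at P60. Promoters from 1000 bp upstream to 500 bp downstream gave 2 of 6 with age in each subtype (25.7% and 29.8% of all promoters), and canonical starts 1 in eYFP+ cells (21.6%). By library length with age, 19 of 36 passed with lengths divided by each library's total (29.9% of all HMRs) and 7 by presence (6.26%). None passed with P60 replicates 1 and 2 alone, with replicates 3 and 4 alone, within eYFP- or within eYFP+ libraries, which gave 0 calls in the genome too. Within a subtype, 2 libraries against 4 cannot give an unadjusted p under 0.05 by the exact permutation test. Of the 12 HMRs called with all libraries, all kept their direction within each subtype. Between ages 10 did not overlap within eYFP- and 11 within eYFP+ libraries, a description since these libraries had chosen them. Divided by the total, Bax H5 turned to 121.5 and Trp53bp1 H5 to 266.5 bp longer at P60. HMRs that did not overlap between subtypes at P60 numbered 0 on that scale and 0 by presence, and at P2 2 by presence (3.02% of all HMRs). Loci with a DMR numbered 1 at P2 (5.35% of all loci) and 0 at P60 (3.53%) with at least 3 differing CpGs, 1 at P2 in the gene body alone (9.35%), and 0 at P60 at a probability over 0.99 (1.67%). The cause of these changes was not tested.

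Leaving out 1 library gave 9 to 11 HMRs that passed with age, 12 to 14 that did not overlap between subtypes at P2 (27.1% to 28.8% of all HMRs), and 1 to 2 at P60 (2 without P60 eYFP- replicate 2). The age call of Anapc7 H3 was lost without P2 eYFP- replicate 1, P2 eYFP+ replicate 1 or P2 eYFP+ replicate 2 (adjusted p from 0.0643 to 0.0704, exact permutation test). Those of Bax H5 and Trp53bp1 H5 were lost without any 1 library (adjusted p from 0.0512 to 0.119, exact permutation test), except without P60 eYFP+ replicate 1 for Bax H5 (0.0210) and without P2 eYFP- replicate 2 for Trp53bp1 H5 (0.0368). The age calls of the other 9 HMRs held in each case. With the replicate number as a block at P60, 1 of 36 HMRs differed one way in all 4 pairs (1.82% of all HMRs), the smallest p being 0.125, and the block changed no call. Depth, the number of libraries and the pooling of mice each limit the subtype comparison at P2.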
